A study of Mus musculus with 116 samples.

Results

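Lin28a, Lin28b, Hmga1, Hmga2, Igf2bp1, Igf2bp2 and Igf2bp3, known as genes of early cortical progenitors, and Nfia, Nfib and Nfix, known as genes of late ones, were followed in cells of the developing mouse neocortex that had or lacked Eed. These 10 genes were chosen by name from the 53379 gene identifiers counted, 7 as early and 3 as late genes, by a rule that uses no measured value but was set with earlier results of these data known. The cells came from mosaic analysis with double markers (MADM), in which Cre recombination between 2 copies of chromosome 7 (MADM-7) labels sparse cells green, red or yellow. In all animals Cre was driven by Emx1, which is active in the dorsal telencephalic progenitors that give rise to cortical projection neurons and glia, and the strain is labelled CD1. The study's methods give a mixed genetic background of which CD1 is a part, with males and females not separated. In control-MADM all cells were Eed+/+. In Eed-MADM the green cells were Eed-/-, the yellow cells Eed+/- and the red cells Eed+/+. The unlabeled cells around them were mostly Eed+/-, so that green cells and their surroundings both differ from control-MADM. In cKO-Eed-MADM both copies carried the floxed allele, so that cells of every color, and the Emx1 lineage around them, were Eed-/-. Neocortices of several animals were pooled for each sorted sample, at ages from E12.5 to birth (P0), and polyA RNA was sequenced by Smart-Seq2. Of the 116 libraries, the 55 green ones with at least 1000000 uniquely aligned reads that made up at least 60% of all reads were compared. From the youngest (E12.5) to the oldest age, with E13.5 and E16.5 between, control-MADM gave 5, 2, 3 and 5 libraries, Eed-MADM gave 8, 2, 5 and 9, and cKO-Eed-MADM gave 4 each time. The study also removed libraries for low correlation with replicates or for reads in the deleted part of Eed, which was not done here, so that libraries it left out are included.

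Progenitors of the cortex change with age in which daughters they can make, from deep-layer neurons to upper-layer neurons to glia. LIN28A and LIN28B are RNA-binding proteins that block the maturation of let-7 microRNAs, and let-7 in turn represses the messages of Lin28, Hmga2 and the Igf2bp genes. HMGA1 and HMGA2 are small chromatin proteins that bind AT-rich DNA, and the IGF2BP proteins bind and stabilize messenger RNAs. The nuclear factor I proteins NFIA, NFIB and NFIX are transcription factors of the later, glia-forming period. EED is a core subunit of Polycomb repressive complex 2 (PRC2), which places the repressive mark H3K27me3 on chromatin.

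Since let-7 is the link between most early genes, its sequence and the sites that match it are shown first. Apart from mmu-let-7j, whose bases 2 to 8 are GAGGUAU, the let-7 microRNAs begin with one shared seed. Of those that share it, 3 are given from RefSeq (GRCm38.p6) with bases 2 to 8 in capitals.
mmu-let-7a-5p: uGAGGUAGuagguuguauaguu
mmu-let-7b-5p: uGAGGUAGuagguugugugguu
mmu-let-7i-5p: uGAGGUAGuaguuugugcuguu
The DNA letters that pair with this seed are CTACCTC. They were searched for on the transcribed strand of the 3′ UTRs of 20966 genes, using the GENCODE M21 coding transcript with the longest 3′ UTR for each gene, and 8.96% of the genes held them at least once. All 7 early genes held a match, against 1 of the 3 late genes. Lin28b, Hmga2 and Igf2bp1 held 4 matches each, a number reached by 0.0572% of all genes and by 0.297%, 0.124% and 0.333% of those with a 3′ UTR about as long, and Lin28a held 2. Hmga1, Igf2bp2, Igf2bp3 and Nfia held 1 match each, and Nfib and Nfix held none. Longer 3′ UTRs hold more matches by length alone: of the 349 genes with a 3′ UTR about as long as the 7639 bases of Nfia, 40.7% held a match, and of the 2414 about as long as the 3014 bases of Hmga2, 16.1% did. The first match in each of 4 early genes is shown with the matching letters in capitals. In GRCm38 on the minus strand the capitals lie at chr10:45381023-45381029 in Lin28b, chr10:120364225-120364231 in Hmga2, chr11:95961779-95961785 in Igf2bp1 and chr16:22059474-22059480 in Igf2bp2.
Lin28b: cccgggcgggaagtCTACCTCat
Hmga2: ccgacattcaatttCTACCTCag
Igf2bp1: ctgtgcgaagtaaaCTACCTCaa
Igf2bp2: cacacaaataaaagCTACCTCag
A match is a description of the letters and does not show that a microRNA acts there. Mature let-7 was not measured, since the libraries were made from polyA RNA.

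**Figure D1:**
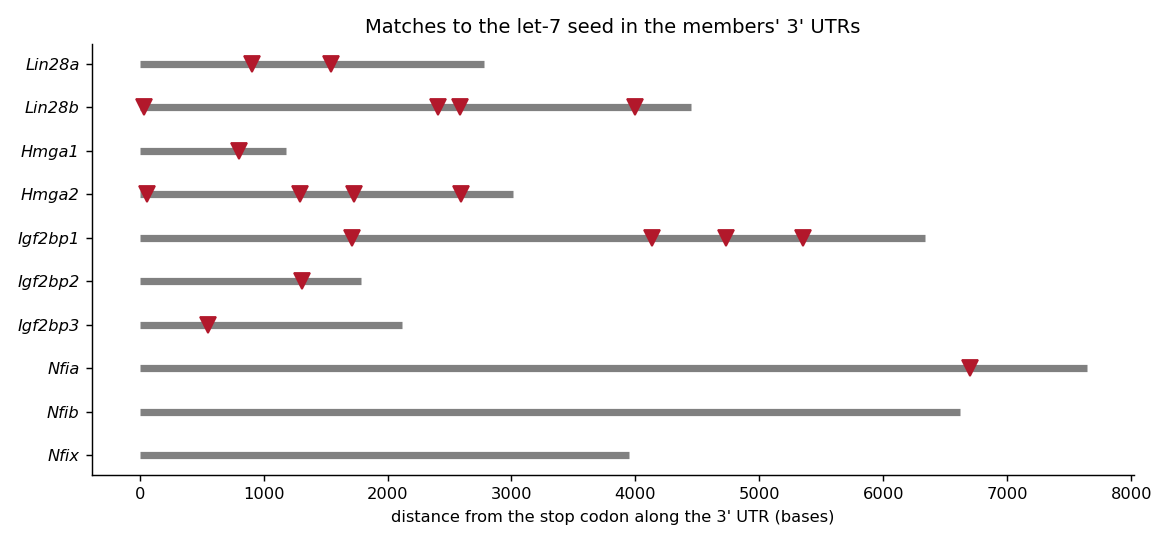
Grey bars are the 3′ UTRs of the 10 genes in bases from the stop codon, and red triangles mark matches to the let-7 seed. The early genes in the upper 7 rows hold 1 to 4 matches each, Nfia holds 1, and Nfib and Nfix hold none.

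Because PRC2 is known to act at CpG-rich promoters, the promoter windows of the 3 early genes whose RNA rose most in the cKO-Eed-MADM cells at P0 are given, with every CG in capitals. The windows run from 250 bases before to 50 bases after the RefSeq start (GRCm38.p6, minus strand), at chr10:45470152-45470451 for Lin28b, chr10:120476420-120476719 for Hmga2 and chr16:22163250-22163549 for Igf2bp2. Of the 10 genes, 8 had such a window.
Lin28b: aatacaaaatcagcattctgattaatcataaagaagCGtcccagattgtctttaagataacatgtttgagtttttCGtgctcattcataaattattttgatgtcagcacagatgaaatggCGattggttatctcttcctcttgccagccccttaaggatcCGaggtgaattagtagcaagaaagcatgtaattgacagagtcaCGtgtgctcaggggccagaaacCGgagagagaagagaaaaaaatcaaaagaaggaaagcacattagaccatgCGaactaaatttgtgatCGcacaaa
Hmga2: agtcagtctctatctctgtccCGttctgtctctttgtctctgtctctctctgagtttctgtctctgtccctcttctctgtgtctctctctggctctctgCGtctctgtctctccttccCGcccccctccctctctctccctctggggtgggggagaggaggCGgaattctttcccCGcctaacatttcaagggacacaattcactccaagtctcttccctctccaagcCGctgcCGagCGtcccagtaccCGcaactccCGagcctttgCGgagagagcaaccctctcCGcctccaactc
Igf2bp2: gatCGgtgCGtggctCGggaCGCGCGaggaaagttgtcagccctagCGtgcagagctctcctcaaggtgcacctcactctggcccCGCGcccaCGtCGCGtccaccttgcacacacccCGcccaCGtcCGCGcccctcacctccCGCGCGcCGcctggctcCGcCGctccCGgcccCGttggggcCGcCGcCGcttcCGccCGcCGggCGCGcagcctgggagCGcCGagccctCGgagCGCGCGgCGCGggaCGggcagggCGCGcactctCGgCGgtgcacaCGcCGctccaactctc
The window of Igf2bp2 held 47 CG, a number reached by 1.44% of the 32851 windows of this length. Hmga2 held 12 CG, reached by 39.6% of the windows, and Lin28b held 8, reached by 48.7%, where the median window held 7. The 3 genes therefore differed in this feature. The Lin28b start of RefSeq lies inside the gene as annotated in GENCODE, which runs from 45376620 to 45486395 on chromosome 10. PRC2 binding and H3K27me3 were not measured in these samples.

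Depth and the check of the deletion come before the levels. The 55 libraries held 865832 to 2359317 reads on genes at E12.5 and 2784557 to 7249098 at the later ages. Levels are given in CPM (counts per 1000000 reads on genes) after TMM scaling over all libraries within the depth limits, and fold changes and adjusted p-values are those of edgeR's quasi-likelihood test over all genes tested, with genes called at an adjusted p under 0.05. Eed itself ran at 25.7 to 33.9 CPM in the 5 control-MADM libraries at P0, 11.2 to 19.5 CPM in the 9 Eed-MADM libraries and 8.64 to 16.1 CPM in the 4 cKO-Eed-MADM libraries. The control libraries lay above all others, and they did so at the ages E13.5 and E16.5 too. Eed was called lower in both paradigms at P0 and in cKO-Eed-MADM at E16.5. It missed the threshold in Eed-MADM at E16.5 (log2 fold change of -1.22 ± 0.29, adjusted p = 0.089), as did the E13.5 difference of cKO-Eed-MADM (-1.64 ± 0.37, adjusted p = 0.093). At E12.5 the Eed-MADM libraries (31.2 to 84.6 CPM) overlapped with the controls (75.2 to 152 CPM). The reads that remain cannot be assigned to the deleted or the kept exons in counts per gene.

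In control-MADM cells the early genes fell with age and Nfix rose. Between E13.5 and P0 7 of the 9 members tested were called, where 26.3% of the 13926 genes tested were. All 6 early genes tested fell, where 11.4% of all genes were called lower, and 1 of the 3 late genes rose, where 14.9% were called higher. From E13.5 to E16.5 5 early genes fell and 1 late gene rose, where 7.32% of the genes fell, 8.44% rose and 15.8% were called in all. From E16.5 to P0 3 early genes fell and no late gene rose, where 5.77% fell, 8.31% rose and 14.1% were called. The median log2 fold change from E13.5 to P0 was -3.27 for the 6 early genes tested, 0.90 for the late genes and 0.05 over all genes. Early and late genes are known by such a course, so that it describes these cells and is not independent support for the names. In these age tests Lin28b passed the filter of a mean count over 10 only through cKO-Eed-MADM. The counts and medians above therefore lend no support. The E12.5 cells were sorted into lysis buffer and the later ones were extracted with Trizol, so that age and collection cannot be told apart there, and E12.5 levels are given without a test against later ages. The control-MADM libraries also differed in marker RNA. Their 5 meningeal markers summed to 29.4 to 969 CPM at E12.5 and 0.932 to 11.6 CPM at E13.5. Their 6 red blood cell markers summed to 2.78 to 1953 CPM and 6.99 to 9.78 CPM. The 4 cortical lineage markers overlapped, at 1083 to 1956.5 CPM and 1222.5 to 1422 CPM. The part of these sums in the E12.5 levels was not tested. In these bulk samples, fewer cells of a type and less RNA per cell cannot be told apart.

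Hmga2 was nearly lost by E16.5. Its level in the control-MADM libraries was 142 to 292 CPM at E12.5, 10.2 and 16.3 CPM at E13.5, 0, 0.275 and 0.878 CPM at E16.5, and 0 to 1.44 CPM at P0. The ages E12.5, E13.5 and E16.5 did not overlap, while E16.5 and P0 did. The log2 fold change was -5.14 ± 1.14 (SE) from E13.5 to E16.5 (adjusted p = 0.00157) and 0.82 ± 1.04 from E16.5 to P0 (adjusted p = 0.67). Lin28b took the same order at lower levels: 6.31 to 33.0 CPM at E12.5, 2.08 and 2.18 CPM at E13.5, 1 read in 3 libraries at E16.5, and 5 reads in 5 libraries at P0. Its log2 fold change from E13.5 to P0 was -3.46 ± 0.89 (adjusted p = 0.00316). Lin28a, its paralog, was near the limit of detection throughout, with 15 reads in 5 control libraries at E12.5, 3 of them at 0, and no read in the 5 control libraries at P0, which allows a level of up to 0.105 CPM.

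Igf2bp1 and Igf2bp2 fell in both intervals from E13.5 on. Igf2bp1 ran at 296 to 542 CPM in control-MADM at E12.5, 302 and 324 CPM at E13.5, 99.6, 107 and 139 CPM at E16.5, and 28.2 to 55.2 CPM at P0. From E13.5 on, no library of one age overlapped with the next. Its log2 fold change was -1.47 ± 0.24 from E13.5 to E16.5 (adjusted p = 3.6e-05) and -1.61 ± 0.19 from E16.5 to P0 (adjusted p = 1.6e-07). Igf2bp2 went from 120 to 152 CPM at E12.5 through 54.5 and 104 CPM at E13.5 and 27.7, 33.0 and 34.5 CPM at E16.5 to 2.15 to 5.97 CPM at P0. Its largest step lay between E16.5 and P0, at a log2 fold change of -3.21 ± 0.37 (adjusted p = 9.1e-08), and its earlier step of -1.35 ± 0.42 (adjusted p = 0.023) was lost without E13.5 replicate 3 or without any one of the 3 E16.5 replicates, with an adjusted p of up to 0.26. Igf2bp3 went from 85.6 to 163 CPM at E12.5 to 28.2 to 41.8 CPM at P0. Its log2 fold change from E13.5 to P0 was -0.93 ± 0.25 (adjusted p = 0.00545), and without E13.5 replicate 3 it was -0.46 (adjusted p = 0.29). It was not called from E13.5 to E16.5 (-0.26 ± 0.29, adjusted p = 0.59), and its call from E16.5 to P0 (-0.67 ± 0.23, adjusted p = 0.041) was lost under 11 of 36 alternatives. The adjusted p was 0.059 with total reads and 0.053 with DESeq2 size factors in place of TMM, 0.11 with no filter, 0.05002 with filterByExpr and 0.56 with all green libraries. It was 0.051 to 0.21 without control-MADM replicate 1 or 2 of E16.5, control-MADM replicate 1, 4 or 6 of P0 or cKO-Eed-MADM replicate 3 of P0. Without strand, reads on the 18.7% of Igf2bp3 exon bases that overlap with Malsu1 cannot be told apart.

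Hmga1 was held at 14.2 to 28.7 CPM at P0, where Hmga2 was nearly gone. Its fall from the 2 E13.5 libraries (26.6 and 74.7 CPM) was -1.36 ± 0.36 on the log2 scale (adjusted p = 0.00478), and rested on E13.5 replicate 1: without it the value was -0.43 (adjusted p = 0.63). Hmga1 shares near-identical sequence with Hmga1b, a copy on chromosome 11, and reads that aligned to both places were left out of the counts. Hmga1b fell from 21.2 and 27.0 CPM at E13.5 to 0.166 to 6.18 CPM at P0, a log2 fold change of -3.04 ± 0.66 (adjusted p = 0.000615).

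The late genes did not rise together. Nfix ran at 110 to 405 CPM in control-MADM at E12.5, 360 and 736 CPM at E13.5, 1424 to 1771 CPM at E16.5 and 1503 to 2247 CPM at P0. The E16.5 libraries all lay above the E13.5 libraries, and P0 overlapped with E16.5. The log2 fold change was 1.55 ± 0.20 from E13.5 to E16.5 (adjusted p = 7.9e-07) and 0.18 ± 0.15 from E16.5 to P0 (adjusted p = 0.50). Nfia was at 258 to 1126 CPM at E12.5 already, and at 369 to 579 CPM at P0. Nfib was at 333 to 1674 CPM at E12.5 and 609 to 727 CPM at P0. The age ranges of both overlapped, and neither was called between ages. The 2 E13.5 control libraries stood far apart for both genes, at 84.9 and 381 CPM for Nfia and 170 and 951 CPM for Nfib. Without E13.5 replicate 3, which holds the higher values, both were called higher at E16.5 (log2 fold change of 2.15 with an adjusted p of 0.0041 for Nfia, and 2.13 with 0.0012 for Nfib). Nfic, the remaining gene of the family, rose from 29.9 and 52.8 CPM at E13.5 to 97.3 to 115 CPM at P0 (log2 fold change of 1.30 ± 0.28, adjusted p = 0.000488).

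Per kilobase of exon, the order of the genes in control-MADM turned over with age. At E12.5 Nfia (57.5 CPM per kb) and Nfib (54.0) stood first and Igf2bp1 (43.1) next, and Hmga2 (29.7) lay close to Nfix (33.7). The E12.5 ranges of Nfia and Nfib spanned more than 4-fold, so that the first places are not separated. At P0 Nfix (248 CPM per kb) stood first, ahead of Nfib (43.4) and Nfia (40.1), which do not differ beyond their spread. The early genes followed at 9.39 CPM per kb for Hmga1, 4.34 for Igf2bp3, 3.85 for Igf2bp1 and 0.453 for Igf2bp2, with Hmga2, Lin28b and Lin28a under 0.1.

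**Figure D2:**
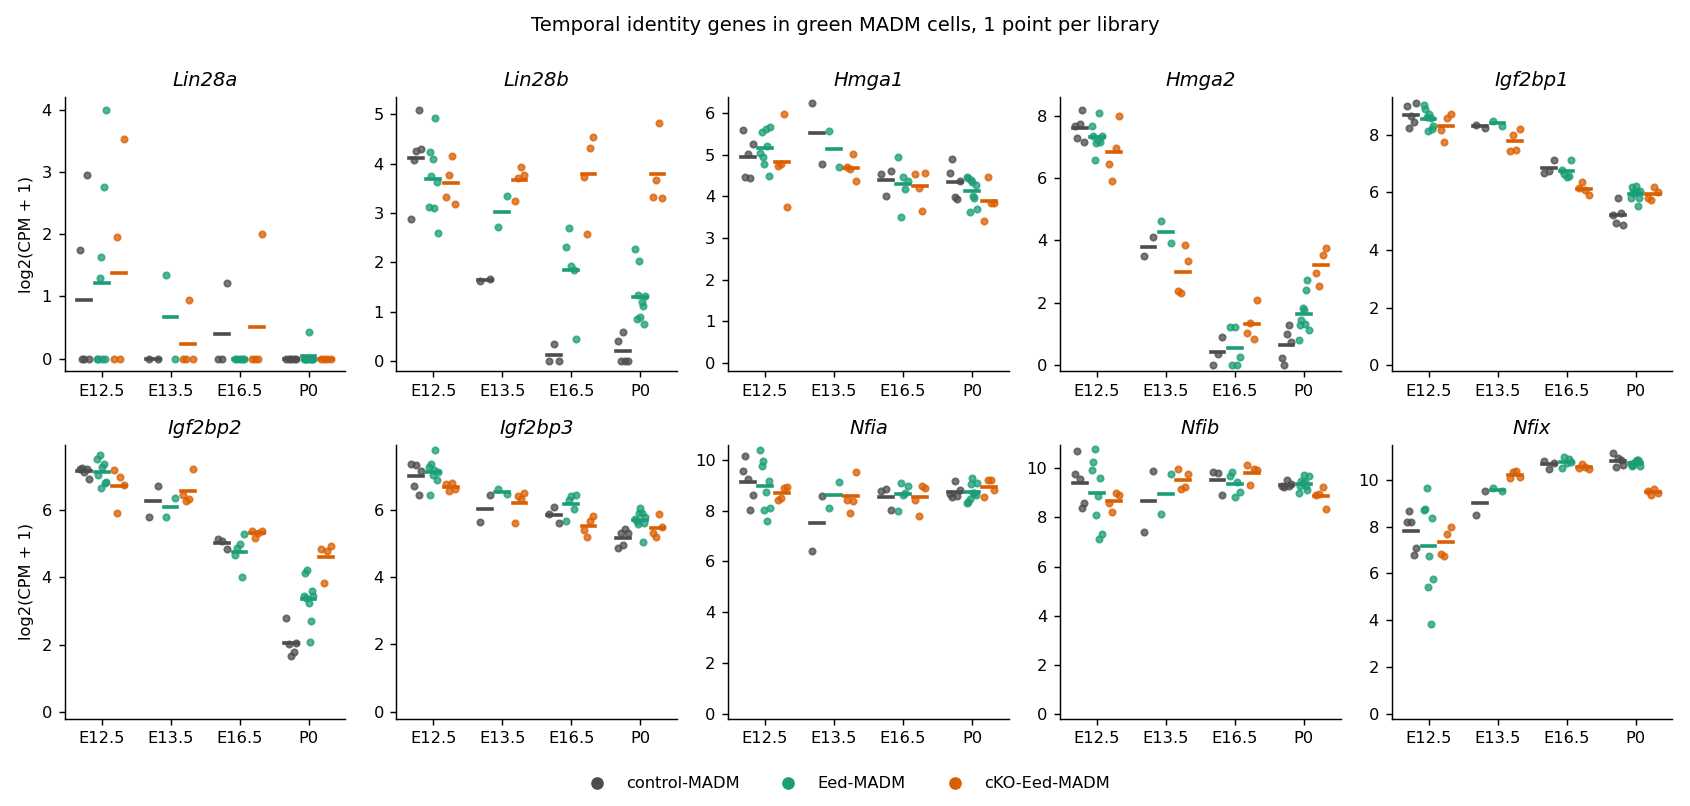
Each point is a green library, on a log2(CPM + 1) axis against age, with bars at the mean of each paradigm. Lin28b stayed at 4.95 to 27.2 CPM in cKO-Eed-MADM at E16.5 and P0 while the control libraries lay under 0.5 CPM, and Nfix at P0 lay at 657 to 782 CPM in cKO-Eed-MADM, below all other P0 libraries.

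At E12.5 no member was called in any of the 3 comparisons between paradigms, where 0% of the 18100 genes tested were called, and 10 of 10 members were tested. DESeq2 called 0 members as well, and at an unadjusted p under 0.05 edgeR had 1, Igf2bp3 for cKO-Eed-MADM against Eed-MADM. In that comparison 1307 of the 18100 genes were under 0.05. For cKO-Eed-MADM against control-MADM the log2 fold changes ran from -0.95 ± 0.71 for Nfib to 0.88 ± 1.59 for Lin28a. Lin28b was at 8.13 to 16.9 CPM in the cKO-Eed-MADM libraries and at 5.02 to 29.4 CPM in Eed-MADM, both overlapping with control-MADM. Eed also missed the threshold at this age, with a log2 fold change of -1.34 ± 0.30 (adjusted p = 0.28).

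At E13.5 no member was called either, where 0.0372% of the 13448 genes were called for cKO-Eed-MADM against control-MADM (0.0297% higher and 0.00744% lower), 0% for Eed-MADM against control-MADM and 0.0223% for cKO-Eed-MADM against Eed-MADM (0.0149% higher and 0.00744% lower). At an unadjusted p under 0.05 these comparisons had 3 members (Lin28b, Hmga1 and Nfix), 1 (Lin28b) and 3 (Hmga2, Igf2bp1 and Nfix). Of the 13448 genes, 1384, 824 and 672 were under 0.05. DESeq2 called 2, 0 and 0 members, and its share of all genes called is not given here. Lin28b lay at 8.42, 12.1, 14.3 and 12.7 CPM in the 4 cKO-Eed-MADM libraries and at 5.53 and 9.09 CPM in the 2 Eed-MADM libraries. All 6 lay above the 2 control libraries (2.08 and 2.18 CPM), and the difference of cKO-Eed-MADM was 2.44 ± 0.73 on the log2 scale (adjusted p = 0.21, and 0.028 with DESeq2). Nfix lay at 1093 to 1325 CPM in cKO-Eed-MADM, above the 360 and 736 CPM of control-MADM and the 733 and 801 CPM of Eed-MADM. The log2 difference from control-MADM was 1.11 ± 0.30 (adjusted p = 0.17, 0.010 with DESeq2 and 0.021 without control replicate 3). The 7 progenitor markers summed to 938 to 1302 CPM in cKO-Eed-MADM at this age, below the 1440 to 1667 CPM of control-MADM, and the 6 cortical neuron markers to 6325 to 7525 CPM, above the 4942 to 5944 CPM of control-MADM, and their part in these differences was not tested.

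At E16.5 the Eed-/- cells of cKO-Eed-MADM kept Lin28b, which the control cells had lost. The 3 control-MADM libraries held 0, 0.275 and 0 CPM, a single read in all. The 4 cKO-Eed-MADM libraries held 12.3, 4.95, 18.9 and 22.2 CPM, and the 5 Eed-MADM libraries 3.98, 5.51, 2.82, 2.57 and 0.362 CPM. Both groups lay above every control library. Summed over libraries, the share of Lin28b reads in cKO-Eed-MADM was 214 times that in control-MADM (95% exact interval 38.1 to 8476, for counting error only), and in Eed-MADM 43.4 times (7.55 to 1737). The call for cKO-Eed-MADM had an adjusted p of 0.000408, and that for Eed-MADM missed the threshold at 0.082 (0.011 with DESeq2, 0.0025 with no filter on low counts and 0.027 without Eed-MADM replicate 5, the lowest). In cKO-Eed-MADM 3 of 4 libraries lay above all of Eed-MADM, by 2.29 ± 0.66 on the log2 scale (adjusted p = 0.040), a call that was lost without any one of Eed-MADM replicates 1, 3 and 4 or cKO-Eed-MADM replicates 1, 3 and 4, with an adjusted p of up to 0.15.

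Igf2bp1 went the other way at E16.5. It was at 70.6, 81.3, 66.2 and 58.2 CPM in cKO-Eed-MADM, below each of the 3 control-MADM libraries (99.6, 107 and 139 CPM) and the 5 Eed-MADM libraries (92.2 to 138 CPM). The log2 fold change was -0.71 ± 0.19 against control-MADM (adjusted p = 0.020) and -0.59 ± 0.17 against Eed-MADM (adjusted p = 0.036). The first call was lost without control-MADM replicate 2 or 3 or cKO-Eed-MADM replicate 3 or 4, with an adjusted p of up to 0.14. The second was lost without cKO-Eed-MADM replicate 1, 3 or 4 or Eed-MADM replicate 5, with an adjusted p of up to 0.12, and with total reads in place of TMM (0.057).

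In all, 8 of the 10 members were tested at E16.5, since Lin28a and Hmga2 did not pass the filter of a mean count over 10. Against control-MADM, 1 member rose and 1 fell in cKO-Eed-MADM, where 6.16% and 2.42% of the 13359 genes did and 8.58% were called in all. In Eed-MADM 0 members were called, where 0.255% of the genes were called (0.24% higher and 0.015% lower), with Lin28b the only member at an unadjusted p under 0.05. Of the 13359 genes, 1405 were under 0.05 there. Against Eed-MADM, 1 rose and 1 fell in cKO-Eed-MADM, where 4.45% and 2.58% did and 7.04% were called in all. Lin28b passed the filter only through the groups without Eed, so that these counts are a description and lend no support. Hmga2 held 34 reads in the 4 cKO-Eed-MADM libraries (0.779 to 3.22 CPM), 15 in the 5 Eed-MADM libraries (0 to 1.33 CPM) and 5 in the 3 control libraries (0 to 0.878 CPM), and the groups overlapped. Nfix was at 1417 to 1652 CPM in cKO-Eed-MADM at this age and overlapped with control-MADM, with a log2 difference of -0.09 ± 0.12.

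At P0 the cKO-Eed-MADM cells differed from control-MADM in 6 of the 9 members tested, where 24.2% of the genes were called. Lin28b, Hmga2, Igf2bp1 and Igf2bp2 were higher, where 14.2% of the 14161 genes tested were called higher, and Nfib and Nfix were lower, where 10% were called lower. The median log2 fold change of the 6 early genes tested was 1.77, that of the 3 late genes -0.44 and that of all genes -0.01. Lin28b and Hmga2 passed the filter only through the groups where they were high, so that the count and the medians lend no support. Hmga1, Igf2bp3 and Nfia were not called, at log2 fold changes of -0.48 ± 0.29, 0.30 ± 0.20 and 0.20 ± 0.20. Lin28a held no read in the 4 cKO-Eed-MADM libraries, which allows up to 0.156 CPM.

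Lin28b differed most among the members at P0. The 5 control-MADM libraries held 0.332, 0, 0.496, 0 and 0 CPM, and the 4 cKO-Eed-MADM libraries 9.03, 11.8, 27.2 and 8.93 CPM. The groups did not overlap, and their means differed 85.9-fold, with a log2 fold change of 6.19 ± 0.80 (adjusted p = 3.5e-06). Hmga2 was at 0.166, 0, 0.993, 1.44 and 0.659 CPM in control-MADM and at 6.68, 4.84, 10.7 and 12.5 CPM in cKO-Eed-MADM, again without overlap, with a log2 fold change of 3.70 ± 0.72 (adjusted p = 0.000515). These P0 levels of Hmga2 stayed below those of the E12.5 control cells.

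Igf2bp2 was at 5.97, 3.03, 2.15, 2.47 and 3.13 CPM in control-MADM at P0 and at 27.8, 13.1, 26.4 and 29.5 CPM in cKO-Eed-MADM. The groups did not overlap, and the log2 fold change was 2.84 ± 0.42 (adjusted p = 2.1e-05). The cKO-Eed-MADM cells had 35.0 to 40.9 CPM at E16.5, so that the gap at P0 came with a fall from 31.7 to 3.35 CPM in the mean of the control cells. Igf2bp1 was at 35.6, 29.3, 55.2, 38.1 and 28.2 CPM in control-MADM and at 54.9, 52.6, 71.4 and 63.4 CPM in cKO-Eed-MADM. Control replicate 4 overlapped with the cKO-Eed-MADM range, and the log2 fold change was 0.70 ± 0.19 (adjusted p = 0.00824).

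Nfix was at 2247, 1503, 1931, 1819 and 1599.8 CPM in control-MADM at P0 and at 743, 657, 782 and 689 CPM in cKO-Eed-MADM. All 4 cKO-Eed-MADM libraries lay below every control library, with means 2.54-fold apart and a log2 fold change of -1.34 ± 0.13 (adjusted p = 5.1e-08). Nfib was at 609 to 727 CPM in control-MADM and at 328 to 602 CPM in cKO-Eed-MADM, without overlap, with a log2 fold change of -0.44 ± 0.16 (adjusted p = 0.048). This small difference lost its call without any one of cKO-Eed-MADM replicates 1 and 4 or control-MADM replicates 1, 4, 5 and 6 (adjusted p of up to 0.20), with total reads (0.11) or DESeq2 size factors (0.061) in place of TMM, with all green libraries (0.17) and with the 2 paradigms alone (0.10). Nfic did not move with them, at a log2 fold change of 0.02 ± 0.19.

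In Eed-MADM, where Eed-/- cells lay sparsely in a mostly Eed+/- cortex, 3 of the 9 members tested at P0 were called higher against control-MADM and 0 lower, where 1.52% and 0.233% of the genes were and 1.75% were called in all. Lin28b, 1 of the 3, passed the filter only through cKO-Eed-MADM, so that this count lends no support. Lin28b ran at 0.695, 1.30 and 3.80 CPM (lowest, median and highest of 9 libraries), all above the control libraries, with a log2 fold change of 3.06 ± 0.74 (adjusted p = 0.031). Igf2bp2 ran at 3.24, 9.79 and 17.8 CPM, of which 7 libraries lay above all controls, with a log2 fold change of 1.58 ± 0.37 (adjusted p = 0.028). Igf2bp1 ran at 45.3, 62.9 and 73.4 CPM, overlapping with control replicate 4 only, with a log2 fold change of 0.71 ± 0.16 (adjusted p = 0.024). These calls rest on the controls: Lin28b lost its call without replicate 2, 5 or 6 of control-MADM (adjusted p of up to 0.086), Igf2bp1 without 2 or 6 (up to 0.082) and Igf2bp2 without 2, 4, 5 or 6 (up to 0.079) and with all green libraries (0.086). Hmga2 (0.759, 1.73 and 5.56 CPM) missed the threshold at a log2 difference of 1.85 ± 0.64 (adjusted p = 0.14), as did Igf2bp3 at 0.54 ± 0.17 (adjusted p = 0.0998, and 0.049 with DESeq2). The late genes lay within the control ranges in most libraries, at -0.02 ± 0.16 for Nfia, 0.04 ± 0.13 for Nfib and -0.12 ± 0.10 for Nfix.

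The direct comparison of both Eed-/- populations at P0 set cKO-Eed-MADM apart from Eed-MADM in 5 of the 9 members, where 19.5% of the genes were called. Lin28b, Hmga2 and Igf2bp2 were higher, where 11.2% of the genes were, and Nfib and Nfix were lower, where 8.26% were. Lin28b passed the filter only through cKO-Eed-MADM, with 274 reads in its 4 libraries against 71 in the 9 of Eed-MADM and 5 in the 5 of control-MADM. Hmga2 did so too, with 176, 113 and 18 reads in the same groups, so that the count of members called lends no support either. Lin28b had a log2 fold change of 3.13 ± 0.53 (adjusted p = 0.000161), and its libraries of 8.93 CPM and more in cKO-Eed-MADM lay above the highest Eed-MADM library at 3.80 CPM. Igf2bp2 had a log2 fold change of 1.26 ± 0.34 (adjusted p = 0.010), and Hmga2 of 1.85 ± 0.55 (adjusted p = 0.020, lost without cKO-Eed-MADM replicate 3 or 4, with an adjusted p of up to 0.084). The Nfix ranges of 657 to 782 CPM and 1544 to 1859 CPM did not overlap, with a log2 fold change of -1.22 ± 0.12 (adjusted p = 9.4e-08). Nfib was lower by -0.48 ± 0.15 on the log2 scale (adjusted p = 0.022), a call lost without cKO-Eed-MADM replicate 1 or 4 (adjusted p of up to 0.14). Igf2bp1 was called against control-MADM in both paradigms, and between them its log2 difference was -0.01 ± 0.17.

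**Figure D3:**
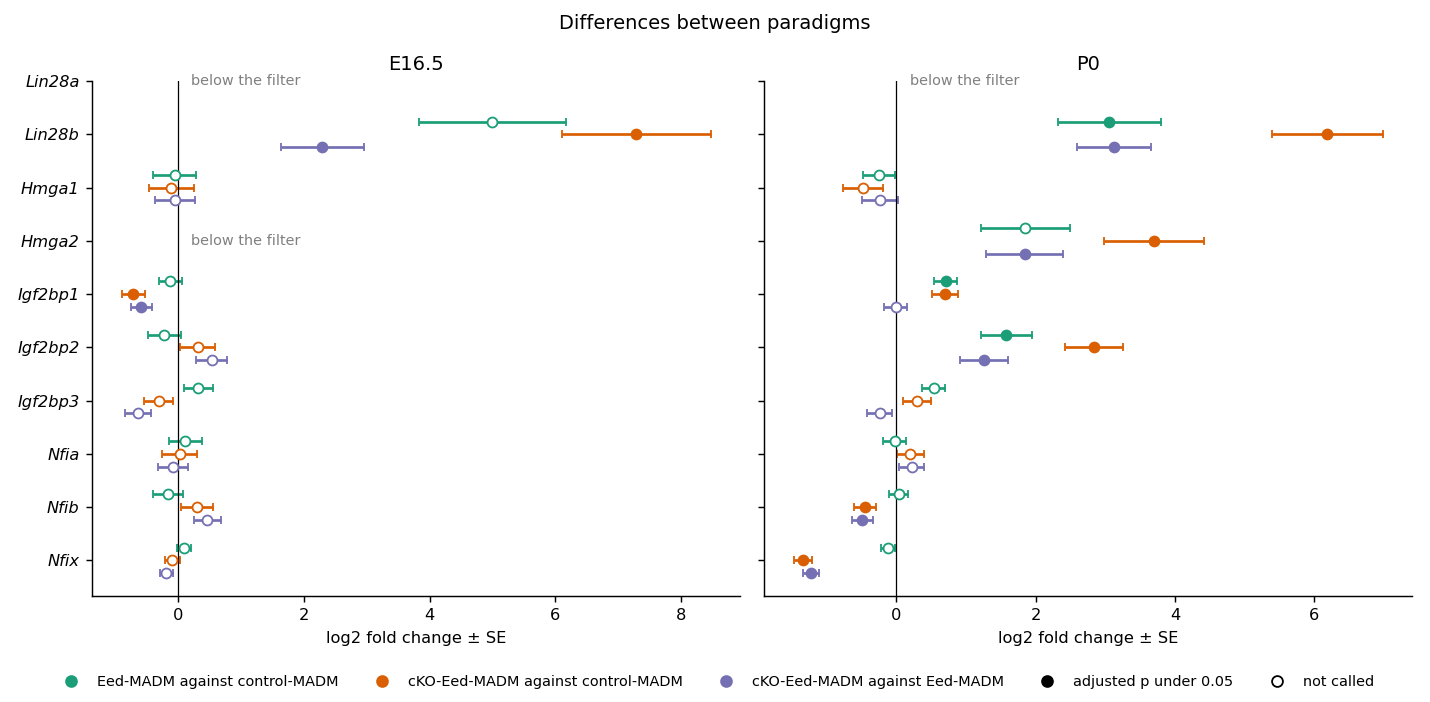
Points are log2 fold changes with their SE for the 3 comparisons at E16.5 and P0, filled where the adjusted p was under 0.05. At P0 Lin28b, Hmga2, Igf2bp1 and Igf2bp2 lie to the right for cKO-Eed-MADM against control-MADM and Nfib and Nfix to the left, at values from 6.19 for Lin28b to -1.34 for Nfix.

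Whether the differences from control-MADM changed with age was tested in a fit of the E13.5, E16.5 and P0 libraries. For cKO-Eed-MADM 3 members changed between E16.5 and P0, where 1.17% of the 13926 genes did (0.402% upward and 0.768% downward). The difference in Igf2bp2 grew by 2.55 ± 0.50 on the log2 scale (adjusted p = 0.00263) and that in Igf2bp1 turned from lower to higher, by 1.43 ± 0.27 (adjusted p = 0.00202). The difference in Nfix moved by -1.23 ± 0.21 (adjusted p = 0.000472). With all green libraries, shallow ones included, 0 of these 3 were called. Between E13.5 and P0 the differences in Lin28b (3.74 ± 1.09), Hmga2 (4.51 ± 1.17), Igf2bp1 (1.22 ± 0.29), Igf2bp2 (2.57 ± 0.52) and Nfix (-2.44 ± 0.24) all changed, where 9.7% of the genes did (4.24% upward and 5.46% downward). Lin28b passed the filter of this fit only through cKO-Eed-MADM, so that the number of members that changed lends no support. With all green libraries the change of Igf2bp1 was 0.60 and not called (adjusted p = 0.69). The Lin28b call was lost without cKO-Eed-MADM replicate 3 of P0 or control-MADM replicate 1 of E13.5 (adjusted p of up to 0.087). In Eed-MADM 0 members changed between E16.5 and P0, where 0.0215% of the genes did (0.00718% upward and 0.0144% downward), and 0 between E13.5 and P0, where 0.89% did (0.366% and 0.524%), by edgeR. Igf2bp1 and Igf2bp2 had an unadjusted p under 0.05 in the first, and Igf2bp2 and Nfix in the second. Of the 13926 genes, 1392 were under 0.05 in the first and 2080 in the second. DESeq2 called Igf2bp2 between E16.5 and P0 (adjusted p = 0.040) and 0 members between E13.5 and P0.

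Nfix rose and then fell in cKO-Eed-MADM. Its mean went from 1198 CPM at E13.5 to 1506 CPM at E16.5 and 718 CPM at P0, with an SD of 117 (n = 4), 102 (n = 4) and 55.8 CPM (n = 4). In control-MADM the means were 548 (SD 266, n = 2), 1631 (SD 183, n = 3) and 1820 CPM (SD 293, n = 5).

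The summed levels of cell type markers moved with these differences, and their part in them was not tested. In these bulk samples, a change in the cells present and a change of marker RNA within cells cannot be told apart. The summed level of 4 cortical lineage markers was 426 to 525 CPM in cKO-Eed-MADM at E16.5 against 1189.8 to 1303 CPM in control-MADM, and 239 to 337 CPM against 728 to 1017 CPM at P0. Markers of cortical neurons (6 genes) were at 1204 to 2737.5 CPM in cKO-Eed-MADM at P0 and 3228 to 6339.5 CPM in control-MADM, while 4 astrocyte markers were at 725 to 1187 CPM against 107 to 315 CPM. The sum of 7 progenitor markers was 831 to 1959 CPM against 775 to 1469 CPM at P0 and overlapped, and the 3 intermediate progenitor markers were at 53.6 to 95.3 CPM against 201 to 346 CPM. At E16.5 the 5 interneuron markers, which do not belong to the Emx1 lineage, were at 247 to 494 CPM in cKO-Eed-MADM against 9.66 to 34.3 CPM in control-MADM, and the 3 oligodendrocyte lineage markers at 42.2 to 234 CPM against 4.12 to 11.4 CPM. At P0 the interneuron sum was 139 to 222 CPM against 348 to 868 CPM, and the oligodendrocyte lineage (436 to 1304 and 619 to 1410 CPM) and red blood cell sums (1.08 to 51.1 and 2.14 to 224 CPM) overlapped. At P0 the 6 microglia markers were at 115 to 291 CPM against 5.60 to 26.2 CPM the 5 meningeal markers at 94.4 to 192 CPM against 8.24 to 14.4 CPM and the 5 endothelial markers at 9.93 to 40.4 CPM against 2.32 to 12.8 CPM, and none of these 3 lists was at 0 in cKO-Eed-MADM.

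The Eed-MADM libraries at P0 stayed closer to control-MADM in these lists. Their cortical lineage sum was 792 to 941 CPM, their meningeal sum 7.48 to 24.9 CPM and their microglia sum 2.02 to 116 CPM. Without Eed-MADM replicate 1, which is the lowest of its group in oligodendrocyte lineage genes (458 CPM), 3 members were called against control-MADM, an alternative chosen after seeing the data.

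**Figure D4:**
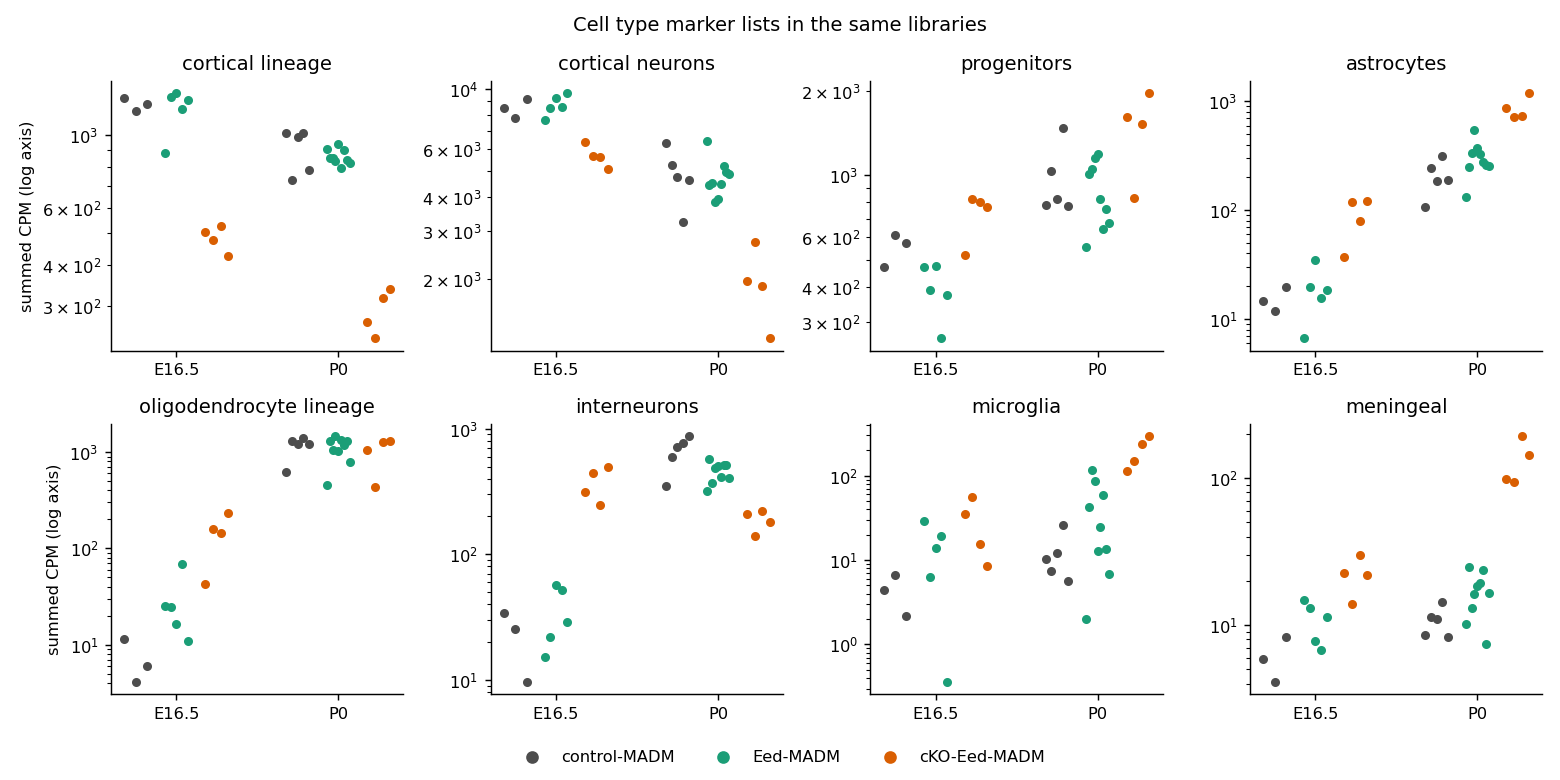
Points are single green libraries at E16.5 and P0, and the log axes give the summed CPM of each marker list. The cKO-Eed-MADM libraries lie below the others in cortical lineage and cortical neuron markers (239 to 337 CPM for the lineage at P0) and above the control libraries in astrocyte, microglia and meningeal markers.

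The red and yellow libraries of the same paradigms were not used in the fits. Their Eed status differs from that of the green cells in Eed-MADM only. Green and red cells also carry both copies of chromosome 7 from different parents, so that in Eed-MADM the loss of Eed and the parental origin of this chromosome cannot be told apart, and no test is given between colors. In Eed-MADM at P0 the 4 red and yellow libraries, which keep 1 or 2 copies of Eed, held Lin28b at 0 to 0.357 CPM, and the 9 green Eed-/- libraries all lay above them. Hmga2 was at 0 to 0.706 CPM in red and yellow and above that in all 9 green libraries. Igf2bp3 was at 27.3 to 32.1 CPM in red and yellow and at 32.2 to 65.8 CPM in green, again without overlap. Igf2bp1 was at 41.4 ± 10.3 CPM in red and yellow (SD, n = 4) and 61.5 ± 8.70 CPM in green (SD, n = 9), and Igf2bp2 at 3.83 ± 1.62 and 10.2 ± 4.62 CPM, with overlap for both. For Hmga1, Nfia, Nfib and Nfix the colors overlapped. Green, yellow and red cells may come from the same pools of animals.

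Colors also differed where Eed status did not. In control-MADM at P0 the mean of Igf2bp1 was 37.3 CPM in green, 28.8 CPM in red and 10.1 CPM in yellow, and that of Igf2bp3 was 35.4, 27.8 and 21.0 CPM. Igf2bp2 was higher in yellow there, at 14.7 CPM against 3.35 CPM in green. The yellow means are of 2 libraries, and yellow replicate 2 held reads on only 13181 genes, against 19880 in yellow replicate 1. Yellow replicate 1 held 20.1 CPM of Igf2bp1 and 5.73 CPM of Igf2bp2, and yellow replicate 2 held 0 and 23.7 CPM. In cKO-Eed-MADM at P0 Lin28b was at 8.93 to 27.2 CPM in green and at 0 to 6.33 CPM in red and yellow. The 0 was in red replicate 1, which held reads on only 13133 genes, against 18385 in red replicate 2. In such libraries color and the low number of genes detected cannot be told apart. The differences between colors were not tested.

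In cKO-Eed-MADM, where all colors are Eed-/-, the red and yellow cells shared the low Nfix of the green cells at P0. The 3 libraries held 722 (yellow), 650 and 871 CPM (red), against 1459 to 2985 CPM in the 4 red and yellow control-MADM libraries. Hmga2 was at 3.15 to 5.51 CPM against 0 to 0.453 CPM. Lin28b was uneven, at 0.846, 0 and 6.33 CPM against 0 to 1.38 CPM, and Igf2bp2 at 29.3, 0.451 and 19.6 CPM. The values of 0 and 0.451 CPM were those of red replicate 1, with reads on only 13133 genes. The control yellow replicate 2 stood apart at P0 with 0 CPM of Igf2bp1 and 23.7 CPM of Igf2bp2. At E16.5 the 2 red cKO-Eed-MADM libraries held Lin28b at 19.1 and 18.6 CPM, against 0 to 1.22 CPM in the 3 red and yellow control libraries.

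**Figure D5:**
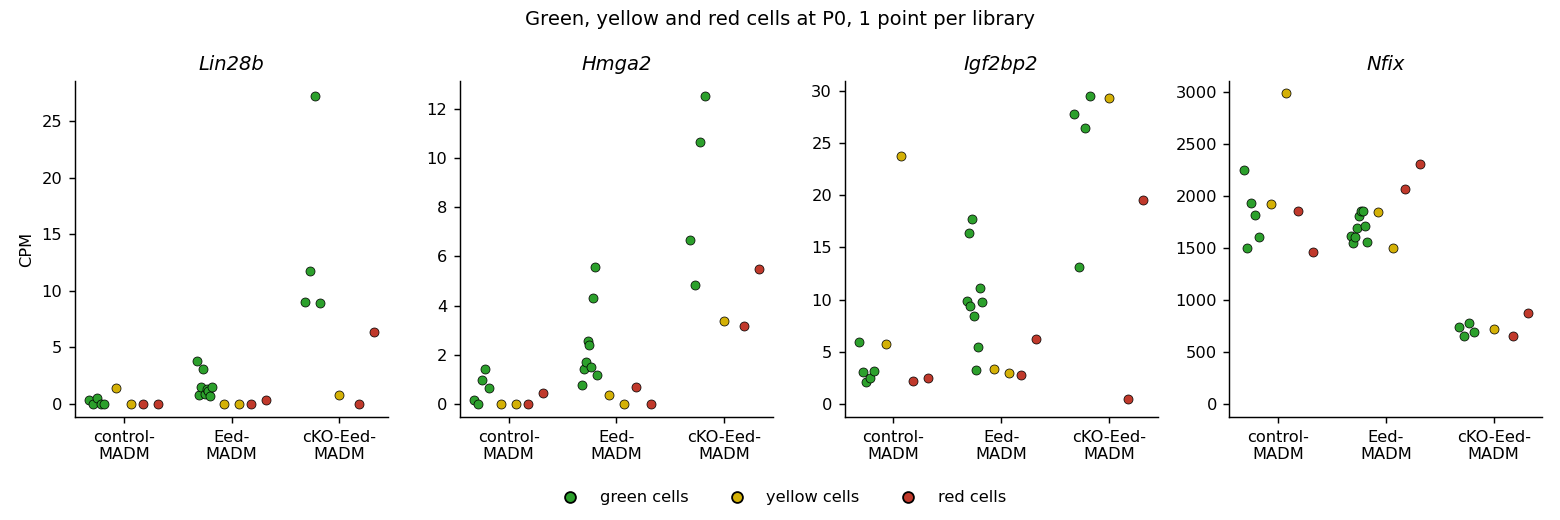
Points are single libraries at P0 in CPM, colored as the sorted cells. In Eed-MADM the green libraries lie above the red and yellow ones for Lin28b and Hmga2, and in cKO-Eed-MADM all colors lie between 650 and 871 CPM for Nfix.

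Other genes of the let-7 pathway were looked up in the same comparisons. Of 12 genes of let-7 and LIN28 (among them Dicer1, Drosha, Dgcr8, Dis3l2 and Ago2), 1 rose and 1 fell in cKO-Eed-MADM against control-MADM at P0, where 14.2% and 10% of all genes did, with a median log2 fold change of -0.29. The gene that rose was Trim71, itself a let-7 target with 4 seed matches that acts with LIN28 in early progenitors, with 5.60 to 9.34 CPM against 0 to 2.14 CPM (log2 fold change of 3.63 ± 0.91, adjusted p = 0.0049). It was also called at E16.5 (5.09 ± 1.40, adjusted p = 0.028), at 5.64 to 13.49 CPM against 0 to 0.439 CPM. The gene that fell was Syncrip (-0.63 ± 0.18, adjusted p = 0.012), an RNA-binding protein. In control-MADM from E13.5 to P0, Xpo5, the exporter of microRNA precursors, fell (-1.18 ± 0.34, adjusted p = 0.0078) and Tut4, which tags them for decay with LIN28, rose (0.89 ± 0.33, adjusted p = 0.040).

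Of 18 let-7 targets outside the members, 3 rose and 4 fell in cKO-Eed-MADM against control-MADM at P0, again against 14.2% and 10% of all genes, with a median log2 fold change of -0.32. Ccnd1, a cyclin of G1 phase, rose from 55.5 to 93.1 CPM in control-MADM to 233 to 437 CPM (2.02 ± 0.25, adjusted p = 1.7e-06). Igf2, a growth factor also made in meninges, was at 9.34 to 108 CPM against 0.178 to 2.80 CPM (5.73 ± 0.80, adjusted p = 2e-05). Peg10, an imprinted gene, rose (1.88 ± 0.38, adjusted p = 0.00066), and Mycn, a transcription factor of growing cells, fell (-0.85 ± 0.20, adjusted p = 0.0026). In control-MADM 7 of the 18 fell and 1 rose from E13.5 to P0, where 11.4% and 14.9% of all genes did, with a median of -0.73. In Eed-MADM at P0 0 of the 18 and 0 of the 12 pathway genes were called, where 1.75% of all genes were, with medians of 0.02 each. At E16.5 2 targets rose in cKO-Eed-MADM, Ccnd1 (2.35 ± 0.41) and Igf2 (5.67 ± 1.19), and Mycn fell (-1.13 ± 0.14), where 6.16% of all genes rose and 2.42% fell.

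Genes that NFI factors are known to regulate, and their partners, went both ways in cKO-Eed-MADM at P0. Of 12 such genes 3 rose and 1 fell against control-MADM, where 14.2% and 10% of all genes did, with a median of 0.07, and at E16.5 Sox9 (1.37 ± 0.30) and Insc (6.06 ± 1.58) rose and Bbx fell (-0.99 ± 0.30). Gfap, the intermediate filament of astrocytes, rose from 23.5 to 81.8 CPM to 313 to 512 CPM (3.25 ± 0.41, adjusted p = 6.9e-06), Apcdd1 rose (1.69 ± 0.28, adjusted p = 6.8e-05) and so did Hes1, a Notch effector (1.40 ± 0.31, adjusted p = 0.0021). Ezh2, the catalytic subunit of PRC2, fell from 196 to 237 CPM to 108 to 132 CPM (-0.89 ± 0.15, adjusted p = 0.00014). Of 10 PRC2 genes it fell together with Rbbp4, Mtf2 and Eed, and 0 rose, where 10% and 14.2% of all genes did, with a median of -0.52. Eed is the gene deleted in these cells, so that its fall was set by the design and it enters this count and median as such.

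Genes of late progenitors rose with age, and some of them were higher in cKO-Eed-MADM. All 16 of them rose in control-MADM from E16.5 to P0, where 8.31% of all genes did, with a median log2 fold change of 2.79 against 0.04 over all genes. The list was chosen by name as late genes, with earlier results of these data known, so that this count lends no support. The 4 astrocyte markers summed to 11.8 to 19.5 CPM in control-MADM at E16.5 and 107 to 315 CPM at P0, and their part was not tested. Against control-MADM 7 of the 16 rose and 0 fell in cKO-Eed-MADM at E16.5, where 6.16% of all genes rose, with Bcan (1.48 ± 0.28), Slc1a3 (1.64 ± 0.32), Pla2g7 (2.15 ± 0.46), Tnc (1.99 ± 0.48) and Ttyh1 (0.88 ± 0.22) at the lowest adjusted p. At P0 7 rose and 1 fell, where 14.2% and 10% of all genes did, led by Pla2g7 (2.71 ± 0.33, adjusted p = 3.4e-06), Sparcl1 (1.99 ± 0.28, adjusted p = 2.2e-05), Ptn (1.14 ± 0.18), Apoe (2.00 ± 0.35) and Ttyh1 (1.36 ± 0.27). The same libraries had the higher astrocyte and microglia sums, whose part in this was not tested. In Eed-MADM at P0 only Mt3 of the 16 was called, where 1.75% of all genes were, and it fell (-0.996 ± 0.25, adjusted p = 0.047).

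Other genes with a course like that of a member were found over the 12 means of paradigm and age, as Pearson's r of log2(CPM + 1) among genes with a mean of at least 5 CPM. Lin28b was most like Ebf3 (r = 0.9533) and Nr2f2 (0.934), both transcription factors. Hmga2 was most like Pcdh19 (0.976) and Hells (0.971), Igf2bp1 like Ppie (0.9772) and Psmg1 (0.9725), Igf2bp2 like Cmtm7 (0.961) and Ptpn2 (0.949), and Igf2bp3 like Utp11 (0.9605) and Pinx1 (0.9505). Hmga1 was most like Ddx39b (0.9958) and Rnaseh2a (0.9791), and Lin28a like Pfdn1 (0.9409) and Ccdc6 (0.9383). Nfix was most like Nos1 (0.9864) and Gng10 (0.9855), Nfia like Ubxn4 (0.9563) and Ext1 (0.9524), and Nfib like Camsap2 (0.9154) and Ccdc177 (0.9141). The 12 means share libraries, depth and cell makeup, and these values are a description.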

How the data were processed

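Bulk Smart-Seq2 libraries of sorted green, yellow and red MADM cells were used. Per the labels and the study's methods, the authors deposited raw counts per gene, made with STAR on mm10 (GRCm38) from reads aligned to 1 place. The unstranded counts were used, since 49.6% to 51.4% of the stranded reads fell on the first strand. No source used here names the annotation release, and 53274 of 53379 identifiers matched GENCODE M21. Reads in no gene or in several made up 13.4% to 40.1% and were kept out of library sizes.

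In R 4.3.3, edgeR 4.0.16 was run with TMM scaling and quasi-likelihood tests on genes whose counts averaged more than 1 at E12.5 and more than 10 later, with the 3 paradigms of an age in one fit, and E13.5, E16.5 and P0 in another for age and interactions. Benjamini-Hochberg adjustment ran over all genes tested, and the tests were checked on simulated data. Alternatives were DESeq2 1.42.0, its size factors, total reads, other filters, all green libraries, a replicate block, 2 paradigms alone, and leaving out each library. Members and lists were chosen with earlier results of these data known. Named genes were the 10 members, Eed, Nfic, Hmga1b and the called genes of each list, up to 5 with the lowest adjusted p, of which some are not reported here. Each library is a pool of cortices, so that p-values measure the spread between pools. Intervals and limits from 3 reads cover counting error only. No 2 libraries held identical counts.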

Additional observations from a re-analysis of the deposited data

Results flagged for a closer look

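In 86 groups of 4 to 10 libraries, 6 held a highest library far from the others, and chance alone gives such a gap in about 1 of 20 groups. These were Lin28a at 15.1 CPM in Eed-MADM at E12.5, at 0.931 CPM in cKO-Eed-MADM at E13.5 and at 3.02 CPM in cKO-Eed-MADM at E16.5, Lin28b at 27.2 CPM in cKO-Eed-MADM at P0, and Igf2bp2 at 148 CPM in cKO-Eed-MADM at E13.5 and at 5.97 CPM in control-MADM at P0. Of these, 3 are Lin28a groups near the floor of counting: in cKO-Eed-MADM at E13.5 and at E16.5, 3 of the 4 libraries held 0 reads, so that any single library with reads stands apart and the rate of 1 in 20 does not apply. Lin28b was called in cKO-Eed-MADM at P0 in each of the 9 fits that left out 1 library, with an adjusted p of up to 3.2e-05.

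The difference between cKO-Eed-MADM and control-MADM changed with age, by the interaction term of the edgeR fit, for 5 members. From E13.5 to P0 it changed on the log2 scale by 3.74 for Lin28b, 4.51 for Hmga2, 1.22 for Igf2bp1, 2.57 for Igf2bp2 and -2.44 for Nfix. Lin28b passed the filter of that fit only through cKO-Eed-MADM. From E16.5 to P0 it changed by 1.43 for Igf2bp1, 2.55 for Igf2bp2 and -1.23 for Nfix.

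In the red and yellow libraries, which the fits did not use, all cKO-Eed-MADM libraries lay above all control-MADM libraries in 8 cases. The mean levels in cKO-Eed-MADM were 16.2 CPM of Lin28b, 651 CPM of Nfia, 1250 CPM of Nfib and 1076 CPM of Nfix at E13.5. They were 18.9 CPM of Lin28b and 5.07 CPM of Hmga2 at E16.5, and 4.02 CPM of Hmga2 and 45.3 CPM of Igf2bp3 at P0. In 7 cases all cKO-Eed-MADM libraries lay below all control-MADM libraries. At E13.5 these were Hmga1 (18.5 to 24.3 against 38.1 to 46.0 CPM), Hmga2 (2.97 to 11.2 against 27.2 to 52.6 CPM), Igf2bp1 (116 to 191 against 344 to 380 CPM), Igf2bp2 (79.9 to 106.1 against 113 to 176 CPM) and Igf2bp3 (62.9 to 78.7 against 111 to 123 CPM). The others were Igf2bp1 at E16.5 (86.8 to 87.6 against 89.8 to 140 CPM) and Nfix at P0 (650 to 871 against 1459 to 2985 CPM). These groups hold 2 to 4 libraries each and were not tested. With so few libraries, groups can separate fully by chance. The share of all genes that separated in this way was not counted, so that the numbers of cases are a description only.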

How the results depend on the processing

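Of 1189 values of called members under the alternatives, 1107 kept their call, 82 lost it and 0 changed direction. The number of members called stayed within 1.5 times of the reported one in 432 of 464 cases. The shares of all genes called under the alternatives are not given here, so that these numbers of members are a description. With DESeq2 in place of edgeR, 2 members were called for cKO-Eed-MADM against control-MADM at E13.5, 1 for Eed-MADM against control-MADM at E16.5 and 1 for the change of the Eed-MADM difference between E16.5 and P0. With no filter on low counts, 1 was called for Eed-MADM against control-MADM at E16.5, 4 for cKO-Eed-MADM against Eed-MADM at E16.5, and 1 each for the change of the Eed-MADM difference to P0 from E16.5 and from E13.5. With total reads in place of TMM, and with the 2 paradigms alone, 1 was called for cKO-Eed-MADM against Eed-MADM at E16.5. With all green libraries, which adds shallow ones, 1 was called for P0 against E16.5 in control-MADM, 2 for the change of the Eed-MADM difference from E13.5 to P0, and 0 for that of cKO-Eed-MADM from E16.5 to P0.

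Leaving out 1 library gave 0 to 1 members for cKO-Eed-MADM against control-MADM at E13.5, 0 to 1 for Eed-MADM, 1 to 2 for cKO-Eed-MADM against control-MADM and 0 to 3 for cKO-Eed-MADM against Eed-MADM at E16.5. It gave 0 to 3 for Eed-MADM against control-MADM and 3 to 5 for cKO-Eed-MADM against Eed-MADM at P0, and 0 to 3 for the change of the Eed-MADM difference from E13.5 to P0, where the 3 came without control-MADM replicate 3 of E13.5. The cause of these changes was not tested.

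Libraries of one replicate number in 2 paradigms share only a number: the correlation of their deviations ran from -0.14 to 0.34 over 36 pairs and was over 0.1 in 8. With the replicate number as a block, 0 members were called for cKO-Eed-MADM against Eed-MADM at E16.5, 0 for Eed-MADM against control-MADM at P0 and 3 for cKO-Eed-MADM against Eed-MADM at P0, and 32 of 42 calls of single members were kept.

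Depth limits Lin28a at all ages, Lin28b in control cells from E13.5 on, and Hmga2 at E16.5 and in control cells at P0, where whole groups hold 0 to 39 reads.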
